A study of Mus musculus with 2 samples.

Results

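The 8 genes described here serve the leukotriene and platelet-activating factor (PAF) lipid mediators, and they were read in mouse temporomandibular joints (TMJ) at single-cell resolution. They are *Alox5*, *Alox5ap*, *Lta4h*, *Ltc4s* and *Alox12*, which belong to lipoxygenase product synthesis, *Ltb4r1* and *Ptafr*, which are receptors, and *Pla2g7*, which breaks PAF down. They are 8 of the 32285 genes in the count tables, taken by gene symbol. The genes were chosen by their levels and their share of positive cells over the cell types of these 2 libraries, so the levels and ratios below are a description, without a test.

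The libraries came from TMJs of female wild-type C57BL/6 mice (C57BL/6J in the study's methods) that received a bilateral intra-articular injection of 10 µL PBS, the control, or 10 µL complete Freund's adjuvant (CFA) at 5 mg/mL. CFA is an oil emulsion with killed mycobacteria that sets off joint inflammation. The mice were 8 weeks old at injection by the study's methods (the labels give 8 to 10 weeks), and joints were taken 3 weeks later. Each condition had 1 library, which pooled 3 mice, so no spread between mice was measured and every interval below covers counting error only. The digest held the condyle and disc together with temporal bone, muscle and ligament, and CD45+ immune cells were reduced with beads in both conditions. Cell numbers of the immune classes therefore reflect what the beads left.

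Leukotrienes are made from arachidonic acid. *Alox5* (5-lipoxygenase), which takes its substrate with the help of the membrane protein encoded by *Alox5ap*, forms LTA4. *Lta4h* turns LTA4 into LTB4, a chemoattractant read by the receptor *Ltb4r1*, whereas *Ltc4s* joins LTA4 to glutathione and starts the cysteinyl leukotrienes. *Alox12* encodes the 12-lipoxygenase known from platelets, which forms 12-HETE. PAF is an ether phospholipid that acts on *Ptafr* in neutrophils, macrophages and platelets, and it is hydrolysed by the secreted acetylhydrolase encoded by *Pla2g7*.

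In the GRCm38 build the genes lay on 7 chromosomes. *Alox5* spanned chr6:116410077-116461178 on the minus strand and *Alox5ap* chr5:149264767-149288153 on the plus strand. *Lta4h* spanned chr10:93453411-93484875 on the plus strand and *Ltc4s* chr11:50236461-50238616 on the minus strand. *Alox12* spanned chr11:70241457-70255353 on the minus strand. *Ltb4r1* spanned chr14:55765962-55768494 and *Ptafr* chr4:132564067-132582683, both on the plus strand, and *Pla2g7* spanned chr17:43568098-43612201 on the plus strand. None of them overlapped another annotated gene on its own strand.

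Promoter sequences of 300 bases, from 250 before to 50 after the RefSeq start, were matched in RefSeq (GRCm38.p6) for 7 of the 8 genes. For *Alox5*, *Ltb4r1* and *Ptafr* this is the start given above. The windows of *Alox12*, *Lta4h*, *Ltc4s* and *Pla2g7* sit at other starts. That of *Pla2g7* (chr17:43568201-43568500) lies wholly after the start given above. *Alox5* and *Ltb4r1* are shown because their levels over cell classes were closely alike (given below), and *Alox12* is shown because its levels went with vessels rather than with neutrophils. Capitals mark GGGCGG, the Sp1 GC box, and GAGGAA, a core of PU.1 sites, on either strand (CCGCCC and TTCCTC on the other strand), and the marked stretches do not overlap each other. The *Alox5* window (chr6:116461129-116461428, minus strand) held 1 GC box and 1 PU.1 core, the *Ltb4r1* window (chr14:55765712-55766011, plus strand) 1 and 2, and the *Alox12* window (chr11:70255321-70255620, minus strand) 3 and 1.
Alox5: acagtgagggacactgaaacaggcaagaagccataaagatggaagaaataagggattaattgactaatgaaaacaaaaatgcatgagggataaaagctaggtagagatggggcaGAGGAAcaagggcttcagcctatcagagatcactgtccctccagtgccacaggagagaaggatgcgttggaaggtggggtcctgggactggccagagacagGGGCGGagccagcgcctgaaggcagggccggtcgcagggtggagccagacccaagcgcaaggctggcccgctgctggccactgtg
Ltb4r1: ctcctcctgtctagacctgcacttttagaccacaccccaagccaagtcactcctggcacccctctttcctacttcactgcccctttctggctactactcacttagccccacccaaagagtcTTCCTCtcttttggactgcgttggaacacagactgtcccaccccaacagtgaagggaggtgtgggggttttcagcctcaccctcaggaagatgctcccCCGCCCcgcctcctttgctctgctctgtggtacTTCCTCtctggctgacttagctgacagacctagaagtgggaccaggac
Alox12: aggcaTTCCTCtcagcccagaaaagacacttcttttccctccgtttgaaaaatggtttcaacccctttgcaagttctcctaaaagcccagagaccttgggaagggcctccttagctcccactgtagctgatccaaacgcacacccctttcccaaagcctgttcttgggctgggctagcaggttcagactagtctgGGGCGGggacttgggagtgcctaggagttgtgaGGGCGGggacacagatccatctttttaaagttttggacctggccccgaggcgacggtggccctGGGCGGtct
Of the other matched windows, that of *Ptafr* held 1 GC box and 1 PU.1 core, those of *Lta4h* and *Ltc4s* held 0 and 1, and that of *Pla2g7* held 1 and 0. Among 32851 RefSeq promoters of the same length, 35.7% held the GC box letters and 28.3% the PU.1 letters, so the matches describe these windows and are no evidence of a bound site.

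The PBS library held 7671 barcodes and the CFA library 5709. After the limits of at least 500 genes, at most 10% mitochondrial UMIs and at most 1% hemoglobin UMIs, 2667 PBS cells with 27201994 UMIs and 4014 CFA cells with 44432717 UMIs were kept. The hemoglobin limit removed 3178 of the 5845 PBS barcodes that met the other limits, against 339 of 4353 CFA barcodes. The libraries thus stood apart in hemoglobin UMIs. A barcode over this limit need not be a red cell, and what the removed barcodes were was not tested. The libraries shared 10 barcodes, 2 of them among the kept cells. Clusters were named from marker genes, and the 8 genes and 37 others of the pathway took no part in the clustering. The myeloid classes were larger in CFA, with 72 PBS and 349 CFA neutrophil-like cells, 18 and 315 macrophage-like cells, and 1 and 267 osteoclast-like macrophages. The last class had 7 of 8 of its markers, *Ctsk* being the one that missed the marker threshold, and held 20.7% of the kept CFA UMIs. The neutrophil-like class was mostly immature in PBS (48 immature and 17 mature cells) and more mature in CFA (148 and 180). A cluster of 37 PBS and 131 CFA cells stayed unnamed because granulocyte-monocyte progenitor genes led it while it had all 6 monocyte markers, and it is called the *Prtn3*/*Ctsg* cluster. No cluster was named for mast cells, eosinophils, platelets, or T or NK cells.

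Over all kept cells, 6 of the 8 genes were at least 2-fold higher in CFA by CPM, 1 was at least 2-fold lower and *Lta4h* lay between. CPM here means the UMIs of a gene per 1000000 UMIs of the same cells. By the same rule 9.56% of 18099 genes were at least 2-fold higher and 10.4% at least 2-fold lower. The median CFA to PBS ratio was 2.63 for the 8 genes and 0.869 for all 18099. Because the genes were chosen with these values known, these counts give the background and no more. In such sums, more cells of a type and more RNA per cell cannot be told apart, so the levels are given class by class below.

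**Figure D1:**
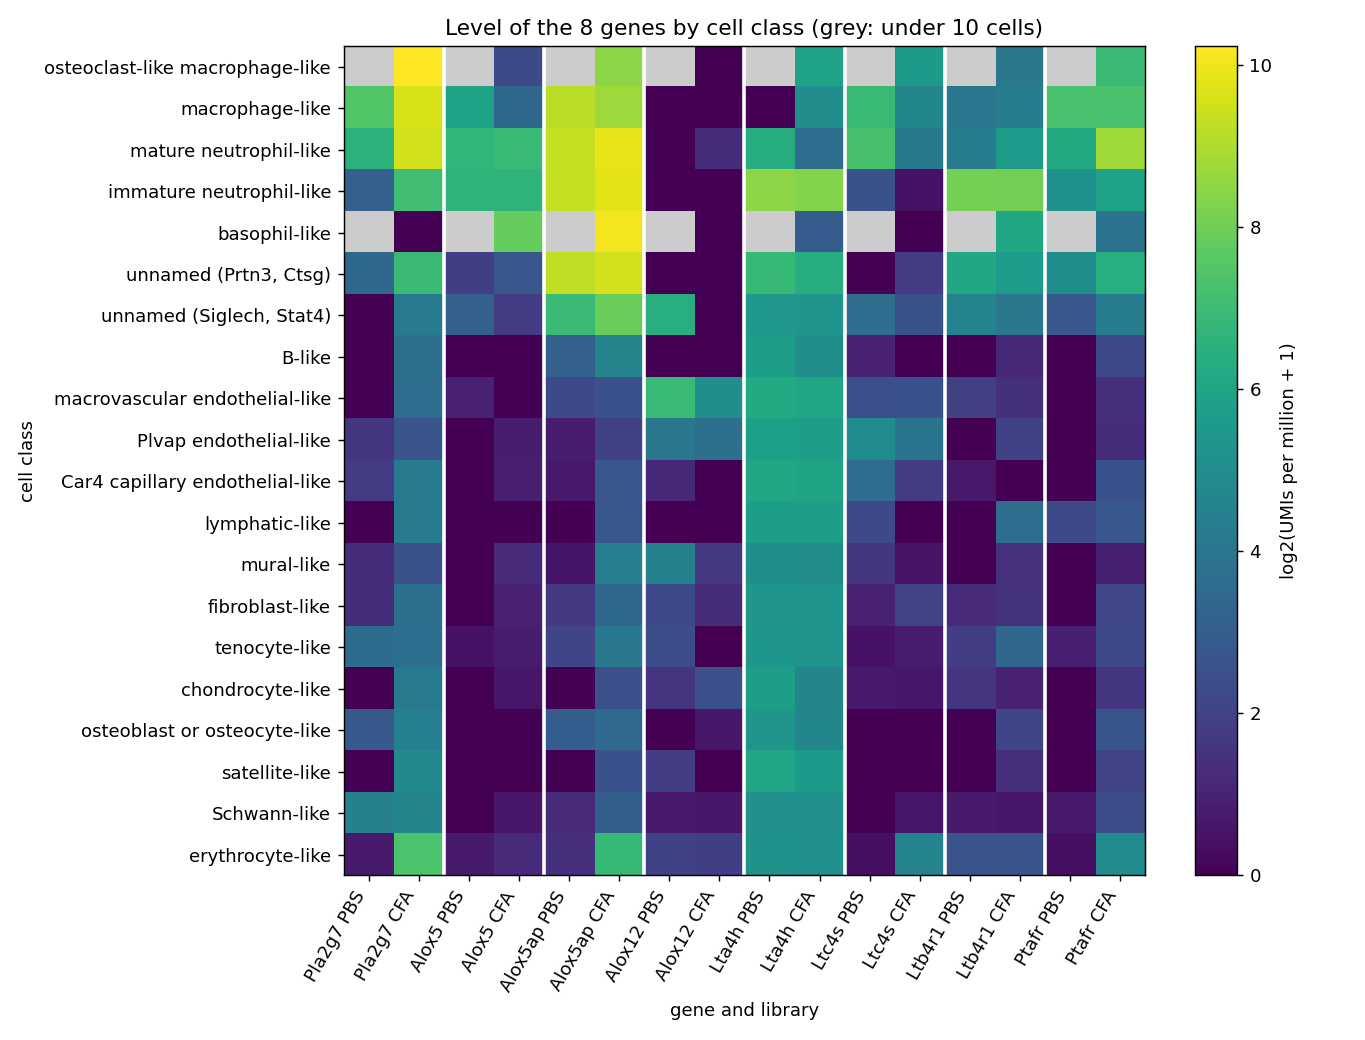
Level of each gene (log2 of CPM plus 1, colour) in 20 cell classes (rows) of the PBS and CFA libraries (columns), with grey for classes under 10 cells. Alox5 and Ltb4r1 stood highest in neutrophil-like or basophil-like cells, Alox12 in macrovascular endothelial-like cells, and Pla2g7 was at 1206 CPM in CFA osteoclast-like macrophages.

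Among the synthesis enzymes, *Alox5* was mainly a neutrophil gene in both libraries. In neutrophil-like cells it stood at 102 CPM (95% exact Poisson interval 81.3 to 126, 84 UMIs) in PBS and at 106 (95.2 to 119, 324 UMIs) in CFA. The CFA to PBS ratio within the class was 1.04 (0.819 to 1.34). Neutrophil-like cells held 72.4% of all *Alox5* UMIs in PBS and 68.9% in CFA. Immature cells had 99.9 and 99.2 CPM and mature cells 108 and 123, so *Alox5* differed between these stages by less than the counting intervals. An *Alox5* UMI occurred in 40 of 72 PBS neutrophil-like cells and 164 of 349 in CFA, against 2 of 753 and 5 of 1047 endothelial-like cells. Those 2 classes had median depths of 7971 and 4492 UMIs (neutrophil-like) and of 5408 and 4405 UMIs (endothelial-like) in PBS and CFA. The few basophil-like cells had the highest value in CFA, 227 (156 to 319) in 12 cells, beside 169 (73.1 to 334) in 7 PBS cells. Macrophage-like cells read 60.9 (31.5 to 106, 12 UMIs in 18 cells) in PBS and 9.94 (7.19 to 13.4) in CFA, and osteoclast-like macrophages 3.91 (2.74 to 5.41). Free RNA of neutrophils, estimated from *S100a8* and *S100a9*, would give 1.71 and 3.00 CPM in the macrophage-like cells and 1.67 in the osteoclast-like macrophages. In the whole libraries *Alox5* stood at 4.26 CPM in PBS and 10.6 in CFA, a ratio of 2.48 (2.02 to 3.07).

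*Alox5ap*, the partner that *Alox5* needs for its substrate, was spread over more of the myeloid cells. Neutrophil-like cells stood at 622 (569 to 678) CPM in PBS and 914 (880 to 948) in CFA, a ratio of 1.47 (1.34 to 1.62) that lay under 2-fold. Immature and mature cells were alike in each library, with 647 and 646 in PBS and 909 and 960 in CFA. The *Prtn3*/*Ctsg* cluster had 610 (555 to 669) and 749 (714 to 784), and a UMI of the gene was seen in 37 of its 37 PBS and 129 of its 131 CFA cells. Macrophage-like cells read 574 (473 to 690) and 421 (402 to 441), and CFA osteoclast-like macrophages 352 (340 to 365). In PBS the intervals of the neutrophil-like, *Prtn3*/*Ctsg* and macrophage-like cells overlapped. Basophil-like cells were highest, at 1334 (1025 to 1707) in PBS and 1067 (906 to 1249) in CFA, and in CFA their interval overlapped that of the neutrophil-like cells. Endothelial-like cells had 1.36 and 4.93 CPM and a UMI in 8 of 753 and 33 of 1047 cells. Of their CFA level, 1.23 CPM would be carried over from neutrophils and 2.87 from osteoclast-like macrophages (by *Mmp12* and *Dcstamp*, as described for *Pla2g7* below). *Alox5ap* was thus present where *Alox5* was scarce: osteoclast-like macrophages held 31.5% and the *Prtn3*/*Ctsg* cluster 17.4% of its CFA UMIs, beside 7.66% and 2.98% of those of *Alox5*.

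*Lta4h*, the LTB4-forming hydrolase, was found in every class of at least 50 cells, and was far higher in immature than in mature neutrophil-like cells. Immature neutrophil-like cells had 349 (304 to 398) CPM in PBS and 323 (300 to 347) in CFA. Mature cells had 82.3 (43.8 to 141, 13 UMIs) and 12 (5.18 to 23.6, 8 UMIs), and neither library's interval reached that of its immature cells. The small neutrophil-like cluster that met neither stage had 198 (7 UMIs in 7 cells) and 603 (351 to 965, 17 UMIs in 21 cells), at a median depth of 2161 and 1084 UMIs. Within mature cells the CFA to PBS ratio was 0.146 (0.0524 to 0.380), from these few UMIs. Elsewhere the gene was lower and broad. Endothelial-like cells had 61.3 (55.2 to 68.0) and 53.2 (47.9 to 58.9), Schwann-like cells 35.1 and 35.5, mural-like cells 33.1 and 32.6, and osteoclast-like macrophages in CFA 57.9 (53.1 to 63.0). Macrophage-like cells had 0 UMIs in 18 PBS cells, which allows up to 15.2 CPM, and 31.2 (26.2 to 36.9) in 315 CFA cells. The ratio over all kept cells was 1.10 (1.03 to 1.17).

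*Ltc4s*, which starts the cysteinyl leukotrienes, went with macrophages and a part of the endothelium. In CFA, osteoclast-like macrophages had 47.3 (43.0 to 52.0) CPM, with a UMI in 94 of 267 cells, and held 65.5% of the gene's UMIs. Macrophage-like cells stood at 117 (74.0 to 175, 23 UMIs) in the 18 PBS cells and at 25.2 (20.7 to 30.4) in CFA, a ratio of 0.216 (0.137 to 0.354). In PBS, endothelial-like cells held 51.0% of the UMIs, and among them the cells with *Plvap*, a gene of fenestrated and venous endothelium, had 30.9 (22.4 to 41.4) in PBS and 14.8 (10.54 to 20.1) in CFA. In PBS 16 of these 44 UMIs lay in 1 cell, and without the top cell of each library the levels were 20.3 (13.5 to 29.4) and 12.01 (8.22 to 16.96), with overlapping intervals. Macrovascular endothelial-like cells had 4.66 and 4.92. The neutrophil-like class had 32.8 in PBS and 3.94 in CFA, but 23 of its 27 PBS UMIs came from 1 cell. Basophil-like cells had none, which over 12 CFA cells allows up to 20.7 CPM. Schwann-like cells had 0 PBS and 1 CFA UMI.

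**Figure D2:**
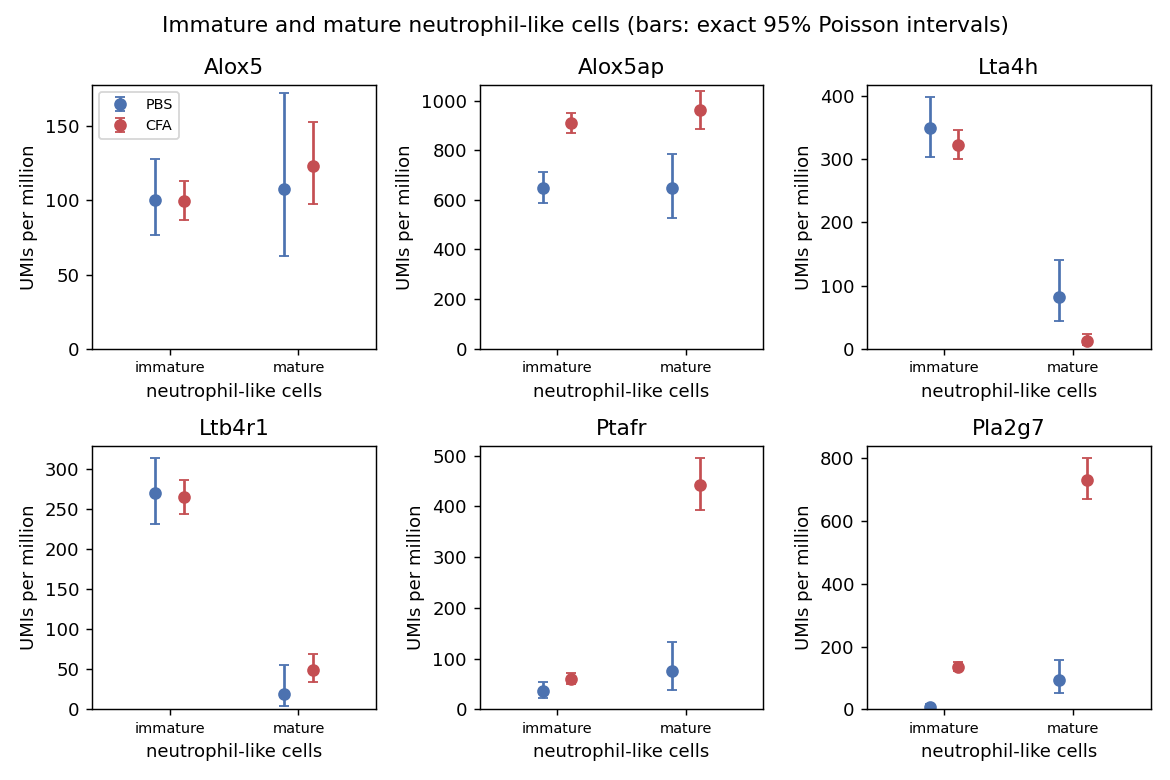
CPM (vertical axes, linear, starting at 0) of 6 genes in immature and mature neutrophil-like cells, PBS in blue and CFA in red, with exact 95% Poisson intervals as bars. Lta4h and Ltb4r1 were higher in immature than in mature cells of both libraries. Pla2g7 was higher in mature cells of both (94.97 in PBS and 732 in CFA). Ptafr was higher in mature cells in CFA (443), while its intervals overlapped in PBS.

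*Ltb4r1*, the high-affinity LTB4 receptor, followed the same stage as *Lta4h*. Immature neutrophil-like cells had 270 (231 to 313) CPM in PBS and 265 (244 to 286) in CFA, while mature cells had 19.0 (3.92 to 55.5, 3 UMIs) and 49.5 (34.1 to 69.5). At least 1 UMI was found in 38 of 48 and 130 of 148 immature cells, against 12 of 753 and 16 of 1047 endothelial-like cells. The immature cells were deeper (median 9535 and 12980 UMIs) than the mature ones (4807 and 2871). After thinning every cell to 1000 UMIs the shares were 35.4% and 25.7% in immature cells and 6.25% and 7.43% in mature cells. The whole neutrophil-like class gave a ratio of 1.015 (0.858 to 1.21) and held 59.9% of the UMIs in PBS and 60.1% in CFA. The *Prtn3*/*Ctsg* cluster had 69.8 (51.9 to 91.7) and 49.3 (40.8 to 59.0), and macrophage-like cells 15.2 and 18.9. The ratio over all kept cells was 2.29 (2.01 to 2.61).

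*Ptafr*, the PAF receptor, showed the opposite order of stages in CFA. Mature neutrophil-like cells had 76.0 (39.3 to 133, 12 UMIs) CPM in PBS and 443 (394 to 496, 295 UMIs) in CFA, a ratio of 5.83 (3.28 to 11.4). Immature cells had 36.5 (23.1 to 54.8) and 60.1 (50.5 to 70.8), a ratio of 1.65 (1.05 to 2.68), and in PBS the intervals of the stages overlapped. Thinned to 1000 UMIs, 12.5% of 16 PBS and 36.0% of 175 CFA mature cells kept a UMI, beside 2.08% and 4.05% of immature cells. Macrophage-like cells had 157 (107 to 223) in PBS and 158 (146 to 170) in CFA, a ratio of 1.004 (0.701 to 1.49). CFA osteoclast-like macrophages had 124 (117 to 131), with a UMI in 244 of 267 cells, and held 44.2% of the CFA UMIs. In CFA the intervals of macrophage-like and neutrophil-like cells (144, 130 to 158) overlapped, as did those of neutrophil-like cells and osteoclast-like macrophages. Endothelial-like cells had 0 UMIs in PBS and 2.32 CPM in CFA. With all kept cells the ratio was 15.8 (12.96 to 19.5), from 100 UMIs in PBS and 2586 in CFA.

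*Pla2g7*, the PAF acetylhydrolase, had the widest difference of the 8 genes between the libraries, 5.73 CPM (156 UMIs) in PBS and 361 (16027 UMIs) in CFA, a ratio of 62.9 (53.7 to 74.1). Osteoclast-like macrophages, of which PBS had 1 cell, had in CFA 1206 (1184 to 1229) with a UMI in 267 of 267 cells, and held 69.3% of its CFA UMIs. Macrophage-like cells held another 20.9%, and they had 173 (120 to 241, 34 UMIs in 18 cells) in PBS and 775 (749 to 801) in CFA, a ratio of 4.49 (3.20 to 6.49). Mature neutrophil-like cells had 94.97 (53.2 to 157, 15 UMIs) and 732 (669 to 800), a ratio of 7.71 (4.63 to 13.9). Immature cells had 7.93 (2.58 to 18.5, 5 UMIs) and 136 (122 to 152), a ratio of 17.2 (7.29 to 53.3). The *Prtn3*/*Ctsg* cluster had 9.58 (7 UMIs) and 125 (112 to 140). Thus each of these myeloid classes that both libraries held was higher in CFA. Basophil-like cells had 0 UMIs in both libraries.

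Outside the myeloid cells, *Pla2g7* lay close to level between the libraries in Schwann-like and tenocyte-like cells. Schwann-like cells had 20.8 (14.2 to 29.4) CPM in PBS and 24.2 (17.7 to 32.4) in CFA, a ratio of 1.17 (0.725 to 1.90), and held 20.5% of the PBS UMIs. Tenocyte-like cells had 11.3 (7.35 to 16.5) and 12.5. Endothelial-like cells had 1.70 and 10.7, fibroblast-like cells 1.51 and 12.6 and mural-like cells 1.53 and 4.85. To estimate free RNA, the levels of *Mmp12* and *Dcstamp*, defining genes of osteoclast-like macrophages, were scaled to *Pla2g7* in each CFA class. This gave 9.83 CPM in endothelial-like, 3.00 in fibroblast-like, 4.51 in mural-like, 9.18 in Schwann-like and 20.1 in neutrophil-like cells, so nearly the whole CFA level of endothelial-like and mural-like cells lay within it. Erythrocyte-like cells had 0.677 in PBS and 160 in CFA, beside a carried-over level of 71.3, and their median depth was 18399 UMIs in PBS and 2218 in CFA. The source of the rest was not tested.

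**Figure D3:**
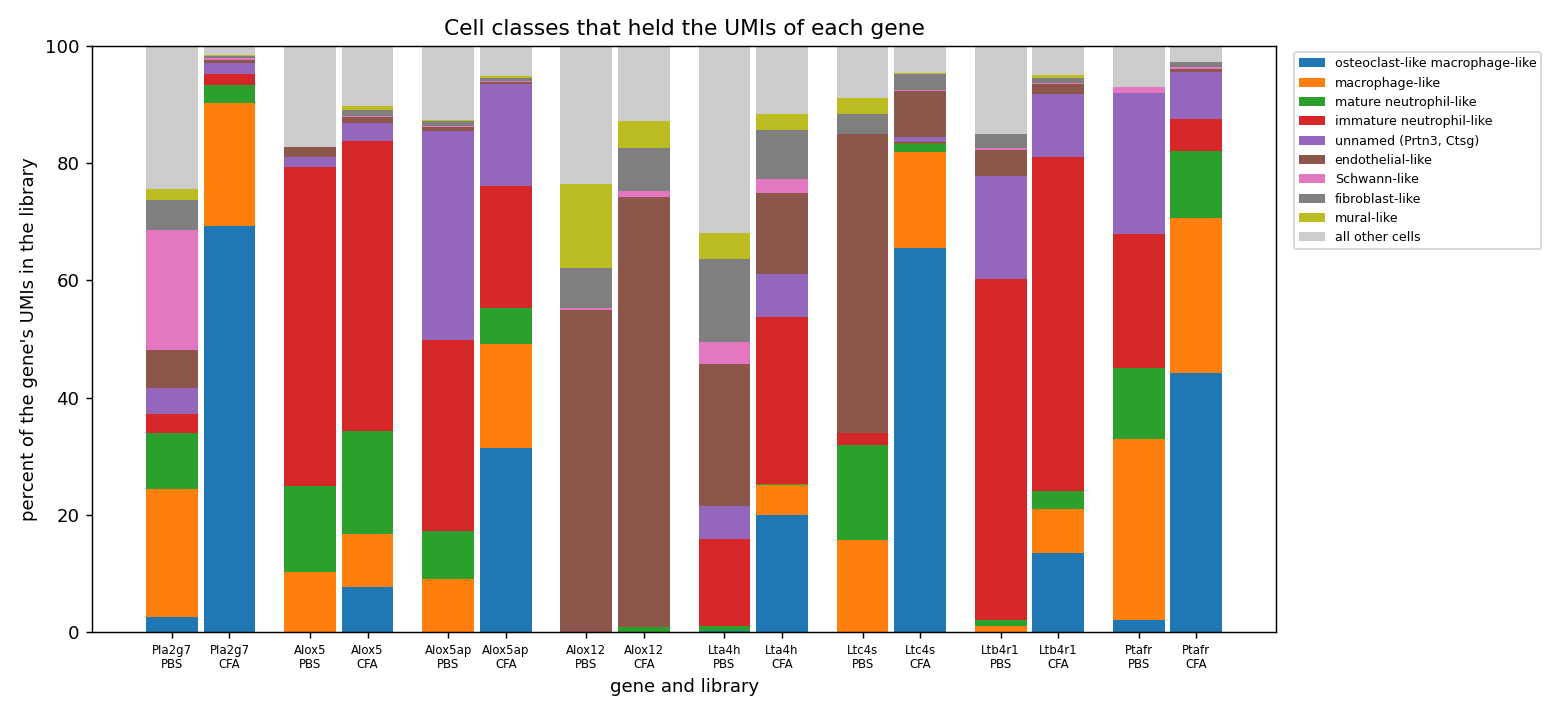
Percent of each gene's UMIs (vertical axis) held by the cell classes (colours) in the PBS and CFA libraries. Osteoclast-like macrophages took 69.3% of Pla2g7, 65.5% of Ltc4s and 44.2% of Ptafr UMIs in CFA, while Alox5 and Ltb4r1 stayed with neutrophil-like cells in both.

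*Alox12* stood apart from the other 7 genes, because among the named classes it was highest in macrovascular endothelium, and it was lower in CFA. The macrovascular endothelial-like cells, which had 4 of 4 macrovascular markers (*Gja5*, *Fbln5*, *Sema3g*, *Alpl*), held 118 (98.7 to 141, 127 UMIs) CPM in PBS and 33.6 (24.1 to 45.6, 41 UMIs) in CFA. The ratio was 0.284 (0.195 to 0.407). At least 1 UMI occurred in 60 of 132 PBS cells and in 29 of 181 CFA cells, at median depths of 5956.5 and 5239 UMIs, and after thinning to 1000 UMIs in 13.7% and 2.76%. Schwann-like cells, at 3832 and 3433 UMIs, gave a UMI in 1 of 308 and 1 of 377 cells. *Plvap* endothelial-like cells had 16.1 (10.2 to 24.2) and 12.5 (8.68 to 17.5), a ratio of 0.777 (0.445 to 1.38), and *Car4* capillary endothelial-like cells 1.28 and 0. Mural-like cells had 21.4 (15.4 to 28.9, 42 UMIs) in PBS and 2.21 (0.716 to 5.15, 5 UMIs) in CFA, a ratio of 0.103 (0.0319 to 0.261).

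The platelet source of *Alox12* was visible in very few cells. With at least 3 platelet or megakaryocyte markers, 7 PBS and 3 CFA cells were found, mostly in an unnamed cluster led by *Siglech* and *Stat4*, and *Alox12* had 49 UMIs in 3 of the 7 and 0 in the 3. The 7 PBS cells read 354 CPM (262 to 469), but 1 cell held 41 of their 49 UMIs, so they are not ranked against macrovascular cells. That cell lay in the *Siglech* and *Stat4* cluster, which had 44 PBS UMIs. Neutrophil-like, macrophage-like and basophil-like cells together had 1 *Alox12* UMI. Over all kept cells the level was 10.8 (293 UMIs) in PBS and 2.45 (109 UMIs) in CFA, a ratio of 0.228 (0.181 to 0.285).

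**Figure D4:**
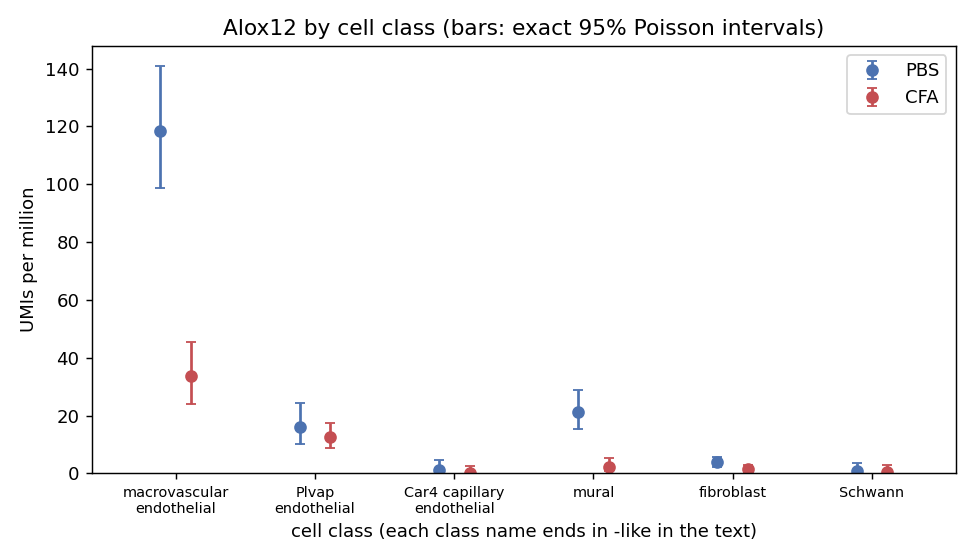
Alox12 CPM (vertical axis, from 0) in 6 cell classes of the PBS (blue) and CFA (red) libraries, with exact 95% Poisson intervals as bars. Of these classes macrovascular endothelial-like cells were highest in both libraries, at 118 in PBS and 33.6 in CFA, and mural-like cells had 21.4 and 2.21.

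Within classes of at least 50 cells in both libraries, the counts were set beside those of all genes with at least 20 UMIs. In neutrophil-like cells 7 of the 8 genes were measured, without *Alox12*. *Pla2g7* (10.9, 7.03 to 18.0) and *Ptafr* (3.38, 2.39 to 4.92) were at least 2-fold higher in CFA, *Ltc4s* was lower (0.120, 0.0555 to 0.246) and 4 lay between, where 8.12% of 9355 genes were higher and 15.3% lower. By cells the class was mostly immature in PBS and more mature in CFA. These ratios sum UMIs, of which mature cells held 157937 of 823690 in PBS and 666497 of 3042470 in CFA. The ratios of these 2 higher genes within each stage are given above. Without the hemoglobin limit, which the study did not use, the ratios were 44.5 and 5.86. In endothelial-like cells 6 were measured: *Pla2g7* (6.29) and *Alox5ap* (3.61) were higher and *Alox12* lower (0.423, 0.319 to 0.556), where 5.11% of 12699 genes were higher and 5.78% lower. The CFA levels behind these 2 higher values lay largely within the estimated free RNA. In fibroblast-like cells 6 were measured, of which *Pla2g7*, *Alox5ap*, *Ltc4s* and *Ptafr* were higher and *Alox12* lower, where 8.55% of 13143 genes were higher and 5.07% lower. Those fibroblast-like levels were small, at most 12.6 CPM in CFA, and *Ptafr* had 0 PBS UMIs and 20 in CFA. For *Ltc4s* 15 of the 18 CFA UMIs and 4 of the 5 PBS UMIs lay in 1 cell each, which leaves 3 and 1. The *Ltc4s* ratios did not hold: without the hemoglobin limit they were 2.42 in neutrophil-like and 0.425 in fibroblast-like cells.

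The ratios were also computed with the cell make-up of the libraries held fixed. The share of UMIs of each class was first held at that of the PBS library. The ratios were then 1.07 for *Alox5*, 1.05 for *Ltb4r1*, 1.02 for *Ltc4s* and 0.870 for *Lta4h*. With the make-up free, the same classes gave 2.85, 2.46, 1.19 and 1.11, and all kept cells 2.48, 2.29, 2.77 and 1.10. *Alox5ap* stood at 1.74, beside 4.42 in the same classes with the make-up free and 5.05 over all kept cells. At the CFA make-up the same genes read 0.679, 0.995, 0.319, 0.911 and 1.15. *Pla2g7* stayed above 2-fold under both, at 8.24 and 5.26, and *Alox12* stayed low under both, at 0.334 and 0.315. *Ptafr* was 3.85 at the PBS and 1.61 at the CFA make-up, and thus under 2-fold in the latter. The erythrocyte-like cells weigh on the PBS make-up, and without them *Pla2g7* read 5.14, *Ptafr* 2.98, *Alox5ap* 1.46 and *Ltc4s* 0.560. These ratios used 16 classes and left out the osteoclast-like macrophages and 3 small classes that had under 10 cells in a library. With the make-up free, the 16 classes gave 25.1 for *Pla2g7*, 11.2 for *Ptafr* and 0.283 for *Alox12*. For *Ltc4s* the step from 2.77 to 1.19 came with leaving those classes out and not with holding the make-up. When neutrophil-like, macrophage-like, osteoclast-like macrophage and basophil-like cells and the *Prtn3*/*Ctsg* cluster were left out instead, *Ptafr* stood at 14.2 (6.95 to 33.6, from 8 PBS and 113 CFA UMIs), *Pla2g7* at 5.08 (4.05 to 6.44), *Alox5ap* at 4.43 (3.61 to 5.46), *Alox5* at 2.01 (0.896 to 4.7997, from 10 and 20 UMIs), *Ltb4r1* at 1.31, *Ltc4s* at 1.07, *Lta4h* at 0.887 and *Alox12* at 0.370. In these cells the CFA level of *Ptafr* was 4.46 CPM, with estimates of 0.562 carried over from neutrophils and 0.861 from osteoclast-like macrophages. That of *Pla2g7* was 18.2, with 1.04 and 8.37, and that of *Alox5ap* 20.2, with 3.58 and 2.45. Of the 512 *Alox5ap* CFA UMIs here, 193 lay in the unnamed *Siglech* and *Stat4* cluster (88 cells) and 85 in erythrocyte-like cells (65 cells). The cluster and the erythrocyte-like cells also held 15 and 118 of 461 *Pla2g7* UMIs, and 16 and 22 of 113 *Ptafr* UMIs.

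**Figure D5:**
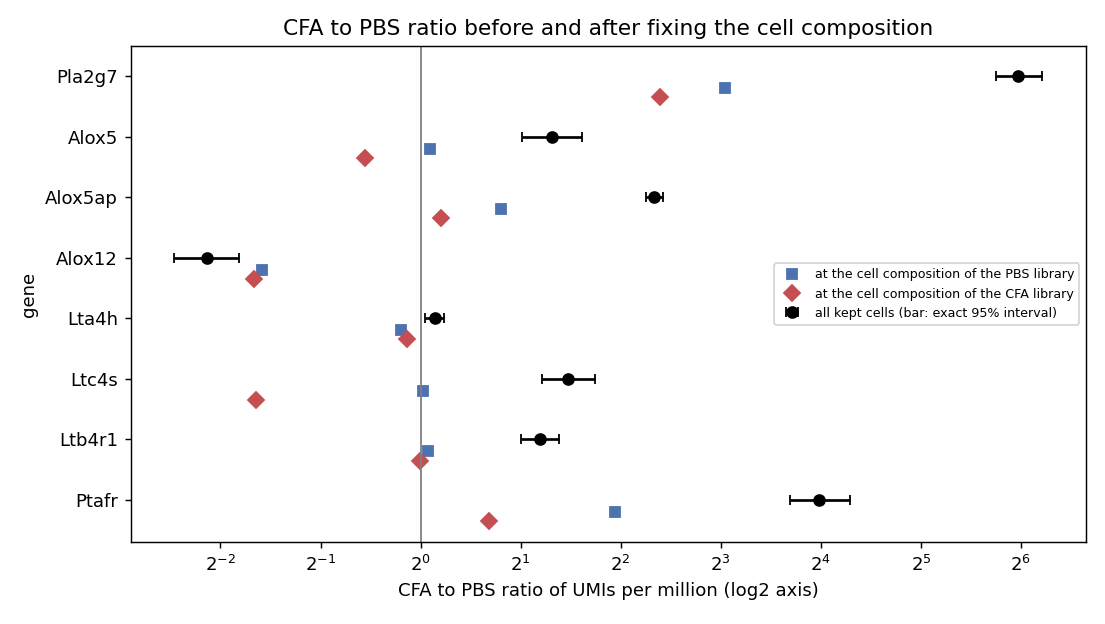
CFA to PBS ratio of CPM (horizontal axis, log2) of the 8 genes over all kept cells (black, exact 95% intervals) and with the cell make-up held at that of the PBS (blue squares) or CFA library (red diamonds). Alox5, Lta4h and Ltb4r1 came to between 0.679 and 1.07 once the make-up was held, while Pla2g7 stayed at 5.26 or above and Alox12 at 0.334 or below. The squares and diamonds leave out the osteoclast-like macrophages and the small classes, which the black points include.

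The enzymes of the pathway were also read in the same cells. *Alox5* and *Alox5ap* UMIs occurred together in 30 of 48 PBS and 106 of 148 CFA immature neutrophil-like cells, and in 6 of 17 and 48 of 180 mature ones. The immature counts are those of *Alox5* alone, as *Alox5ap* was in 47 of 48 and 148 of 148 of these cells. *Alox5* and *Lta4h*, the pair behind LTB4, occurred together in 27 of 48 and 88 of 148 immature cells but in 2 of 17 and 2 of 180 mature cells. At 1000 UMIs per cell the latter pair was seen in 1 of 48 and 0 of 148 immature cells, so depth limits these counts. *Alox5ap* with *Ltc4s* was found in 94 of 267 CFA osteoclast-like macrophages. *Pla2g7* with *Ptafr* was found in 244 of those 267 cells, whose median depth was 31824 UMIs, in 202 of 315 CFA macrophage-like cells and in 98 of 180 CFA mature neutrophil-like cells. Thinned to 1000 UMIs, the last pair was in 8.24%, 9.003% and 19.4% of the cells of these classes. In the osteoclast-like macrophages the unthinned counts of 94 and 244 are those of *Ltc4s* and *Ptafr* alone. There *Alox5ap* was in 264 and *Pla2g7* in 267 of the 267 cells, so these pairs add nothing beyond the single genes.

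Over the 27 combinations of class and library with at least 50 cells, the log2 profiles of *Ltb4r1* and *Alox5* had a Pearson correlation of 0.946, as had those of *Ptafr* and *Alox5ap*. *Ptafr* and *Pla2g7* had 0.919, whereas *Alox12* had between -0.411 and 0.0702 with the other 7 genes. The points share libraries and depth, so these values only describe the profiles. Outside the marker lists, the genes closest to *Alox5* were *Ceacam10* (0.987), *Cd177* (0.983) and *9830107B12Rik* (0.982), and those closest to *Ltb4r1* were *Trem3* (0.969), *Ifitm6* (0.967) and *Ebi3* (0.967). Closest to *Lta4h* were *Fcnb* (0.917), *Cebpe* (0.914) and *Abca13* (0.894). *Alox5ap* lay closest to *Clec12a* (0.986), *Fgr* (0.981) and *Tyrobp* (0.978), and *Ptafr* to *Fcgr3* (0.988), *Lilrb4a* (0.982) and *Ccr1* (0.982). *Pla2g7* lay closest to *Clec4n* (0.973), *Cd300c2* (0.957) and *Il1a* (0.947). *Alox12* had *Hoxd3os1* (0.889), *Gkn3* (0.885) and *Ssu2* (0.876), and *Ltc4s*, with the loosest matches, *AA467197* (0.808), *Pik3cb* (0.798) and *Cd300ld* (0.776).

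Of 37 other genes of these pathways, 31 had at least 20 UMIs. Over all kept cells 10 were at least 2-fold higher in CFA, 3 lower and 18 between, with a median ratio of 1.007. Among all 18099 genes 9.56% were higher and 10.4% lower, so these counts only describe the list. The LTB4-inactivating genes were both higher: *Cyp4f18*, a hydroxylase of myeloid cells, at 5.66 (4.83 to 6.67) and *Ptgr1* at 3.56 (3.23 to 3.92). *Cyp4f18* was highest in CFA mature neutrophil-like cells (449, beside 127 in PBS), and *Ptgr1* in osteoclast-like macrophages (238). *Lpcat2*, which forms PAF in activated myeloid cells, had a ratio of 5.51 (5.01 to 6.07) and its mature neutrophil-like cells 348 (262 to 453) in PBS and 557 (501 to 616) in CFA. *Cotl1*, a binding partner of 5-lipoxygenase, had a ratio of 4.48 and was highest in osteoclast-like macrophages (407). *Dpep2*, a dipeptidase that trims cysteinyl leukotrienes, had 42.8 (24.3 to 83.1, from 12 PBS UMIs), with 57.4 in osteoclast-like macrophages and 52.7 in CFA macrophage-like cells. The other higher genes were *Fpr2* (11.7), *Cmklr1* (5.59), *Cysltr1* (2.34), *Alox15* (2.71, from 7 and 31 UMIs) and *Pla2g2d* (1 and 51 UMIs). Lower were *Pla2g12a* (0.477), *Dpep1* (0.428) and *Ltb4r2*, the low-affinity LTB4 receptor (0.245, from 15 and 6 UMIs).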

How the data were processed

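Mouse TMJ cells of a PBS and a CFA library were profiled by 10x scRNA-Seq. Each library was made from 3 pooled mice. The deposited values are raw UMI counts per gene and barcode, which the authors made with Cell Ranger 7.0.1 on GRCm38 (mm10), per the submitters' processing notes and methods. The labels and methods differ on the digestion and kit version, and which applies was not settled. The study states more CFA cells than the deposited CFA barcodes. Both tables were used whole, 51146169 UMIs in PBS and 53517206 in CFA.

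Barcodes with at least 500 genes, at most 10% mitochondrial and at most 1% hemoglobin UMIs were kept, with doublets left in, since Scrublet (scanpy 1.11.5) called only 21 PBS and 2 CFA cells. The hemoglobin limit is not in the study's methods. Following the methods, cells were clustered with SCTransform (0.4.2) and integration anchors on 3000 genes in Seurat 5.3.0 and R 4.3.3, with 200 principal components and a resolution of 1.5, leaving out the 45 pathway genes. A cluster was named where at least 3 markers of a class had a UMI in 25% of its cells and were 2-fold above the other cells (10 CPM added), unless its 10 leading genes pointed to another class. Maturity and vessel subtypes used their own markers, and 1 neutrophil-like cluster met neither stage. Levels are CPM, the summed gene UMIs of a class per 1000000 of its UMIs, with exact 95% Poisson intervals. Shares have exact Clopper-Pearson intervals, and ratios exact conditional intervals (scipy 1.17.1). A count of 0 was read as up to 3 counts. With 1 library per condition no test was run. On simulated counts for all kept cells (18099 genes), 100 of 100 genes set 4-fold higher and 98 of 100 set 4-fold lower were called. Of 17899 genes left unchanged, 17720 were called neither. The simulation drew independent Poisson counts, the model behind the intervals. It therefore checks the calculation only, and covers neither small classes nor UMIs gathered in 1 cell.

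Gene positions came from GENCODE vM21. The members and lists were chosen with earlier results of these data known. Named are the 8 genes, pathway genes at least 2-fold apart or highest in their role, and the 3 genes with the most similar log2 profile per member. The estimate of free RNA from *Mmp12* and *Dcstamp*, the stages of neutrophils apart, macrovascular cells alone, the ratios without the myeloid classes, those without erythrocyte-like cells and the *Ltc4s* level of *Plvap* cells without the top cell were added after seeing the data. Alternatives covered cell limits, clustering, scaling, thinning and thresholds. Where 2 gene IDs shared a symbol (*Dpep2*) they were summed.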

Additional observations from a re-analysis of the deposited data

Results flagged for a closer look

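*Ltc4s* differed in direction between cell classes. Its CFA to PBS ratio was 3.43 (1.23 to 11.8, from 5 PBS and 18 CFA UMIs) in fibroblast-like cells and 0.120 (0.0555 to 0.246, from 27 and 12 UMIs) in neutrophil-like cells. The difference was not tested, since each condition has 1 library. In the neutrophil-like class 23 of the PBS UMIs lay in 1 cell, and without the cell with the most UMIs in each library the ratio was 0.309. In the fibroblast-like class 15 of the 18 CFA and 4 of the 5 PBS UMIs lay in 1 cell each. Both ratios changed direction without the hemoglobin limit, to 0.425 and 2.42.

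The barcodes left out by the limits, 5004 in PBS and 1695 in CFA, also carried 2 of the genes at least 2-fold higher in CFA. Of them, 3178 in PBS and 339 in CFA failed the hemoglobin limit only. The 2 sets are therefore unlike in make-up, which limits every ratio between them. *Pla2g7* had 1.80 CPM in PBS and 85.9 in CFA there, a ratio of 47.8 (35.2 to 66.6), and *Ptafr* had 1.67 and 15.3, a ratio of 9.16 (6.40 to 13.4). *Alox5ap* stood at 17.3 and 30.3 (ratio 1.75, 1.498 to 2.04), *Alox5* at 2.30 and 3.85 (1.68, 1.07 to 2.61) and *Ltc4s* at 1.13 and 1.65 (1.46, 0.724 to 2.85). *Lta4h* was lower there, at 28.9 and 16.3 (0.565, 0.469 to 0.675), as was *Alox12*, at 2.88 and 0.771, and *Ltb4r1* had 5.18 and 4.18 (0.808, 0.546 to 1.17).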

How the results depend on the processing

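No paired analysis was possible because each condition has 1 library. For the same reason mouse-to-mouse spread is unknown, and a low count of PBS macrophage-like cells (18) and mature neutrophil-like cells (17) limits every ratio in these classes. Genes with few UMIs in a class are limited by depth. Of 72 alternative ratios over all kept cells 55 moved by less than their interval, and 0 of those that were 2-fold apart changed direction. Values moved by less than their interval in 195 of 232 ratios within cell types, 78 of 108 levels and 85 of 108 shares of cells. Ratios at fixed make-up had no interval of their own. They were judged by the relative width of the interval over all kept cells, which includes the osteoclast-like macrophages. By that width 41 of 72 stayed. Of the counts of genes, 19 of 24 stayed within 1.5 times, bounds included.

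Over all kept cells, the mean over cells gave 31.4 for *Pla2g7*, 4.11 for *Alox5ap* and 12.4 for *Ptafr*. Without the hemoglobin limit *Alox5ap* stood at 5.63 and *Ltc4s* at 3.45, and with the highest Scrublet scores removed *Ltc4s* at 4.06 and *Ptafr* at 20.7. Scaling by the median ratio (0.869) gave 5.81 for *Alox5ap*, 1.27 for *Lta4h* and 2.63 for *Ltb4r1*. Without the neutrophil-like, macrophage-like, osteoclast-like macrophage and basophil-like classes and the *Prtn3*/*Ctsg* cluster the ratios were 5.08 for *Pla2g7*, 2.01 for *Alox5*, 4.43 for *Alox5ap*, 0.370 for *Alox12*, 0.887 for *Lta4h*, 1.07 for *Ltc4s* and 1.31 for *Ltb4r1*.

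In neutrophil-like cells without the hemoglobin limit, which brought in more PBS cells, the ratio was 44.5 for *Pla2g7* and 5.86 for *Ptafr*. *Ptafr* was 5.83 in mature and 1.65 in immature cells alone. *Alox12* in endothelial-like cells was 0.242 as the mean over cells and 0.284 in macrovascular cells alone. *Ltc4s* reversed, to 2.42 in neutrophil-like cells without the hemoglobin limit, and in fibroblast-like cells to 0.425 without that limit, 0.213 with the highest Scrublet scores removed and 0 with each cell classed on its own; the cause was not tested. At 1.5-fold, 7 other pathway genes were lower in place of 3.

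At fixed cell make-up (PBS), *Pla2g7* was 11.3 without the hemoglobin limit, 6.48 with 20% mitochondrial UMIs, 5.65 with at least 1000 genes, 5.73 after Scrublet, 3.97 with log-normalized clustering, 6.97 with the pathway genes in the clustering, 12.5 with cells classed singly and 5.14 without erythrocyte-like cells. In the same order, where it moved beyond the width taken from all kept cells, *Alox5ap* was 2.15, 1.56, 1.49, 1.35 and 1.20. It was then 1.64 at a resolution of 0.8, 1.54 with cells classed singly and 1.46 without erythrocyte-like cells. Without the hemoglobin limit *Alox5* was 1.52, *Lta4h* 0.987, *Ltb4r1* 1.496 and *Ptafr* 5.32. Log-normalized clustering gave 0.816 for *Alox5*, 0.589 for *Ltc4s*, 0.854 for *Ltb4r1* and 2.21 for *Ptafr*. At least 1000 genes gave 0.680 for *Ltc4s*, 0.880 for *Ltb4r1* and 3.08 for *Ptafr*, Scrublet 0.813 for *Ltb4r1*, and cells classed singly 0.644 for *Ltc4s*. Without erythrocyte-like cells *Ltc4s* was 0.560 and *Ptafr* 2.98. The causes of these and the preceding shifts were not tested. *Pla2g7* stayed above 2-fold in each of these alternatives.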

Other observations

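Within cell classes, a few other pathway genes lay at least 2-fold apart. In neutrophil-like cells *Cyp4f18* stood at 37.6 CPM in PBS and 153 in CFA, a ratio of 4.06 (2.82 to 6.05), and *Lpcat2* at 135 and 271, a ratio of 2.01 (1.65 to 2.48). *Dpep2*, *Cysltr1* and *Cmklr1* were also at least 2-fold higher there, from 1 or 2 PBS UMIs each, while *Pafah1b3* had 34.0 and 7.56 (0.222, 0.122 to 0.400) and *Pla2g12a* 13.4 and 2.96. These 5 higher and 2 lower genes were among 20 measured, where 8.12% of all 9355 genes were higher and 15.3% lower. With a minimum of 50 UMIs 2 higher and 1 lower remained in the count. In endothelial-like cells *Cmklr1* (2.04 and 8.12, ratio 3.97) and *Lpcat2* (2.04 and 4.93, ratio 2.41) were higher, among 18 measured. *Mgst3*, a microsomal glutathione transferase, was lower there (38.7 and 17.2, ratio 0.446, 0.354 to 0.559). Among all 12699 genes of these cells 5.11% were higher and 5.78% lower.

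*Cysltr1*, a receptor for cysteinyl leukotrienes, had 34.4 (25.4 to 45.4) CPM in PBS and 34.7 (28.0 to 42.4) in CFA in *Plvap* endothelial-like cells, the endothelial-like cells in which *Ltc4s* was highest. *Pafah1b1*, whose product is part of an intracellular PAF acetylhydrolase, had 296 and 287 over all kept cells, a ratio of 0.968 (0.941 to 0.996). *Mgst2*, a relative of *Ltc4s*, was highest in immature neutrophil-like cells, at 194 (161 to 231) in PBS and 100.1 (87.7 to 114) in CFA.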
